A study of Mus musculus with 6 samples.

Results

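Peroxisomal enzymes and peroxins were described in mouse kidney after ischemia-reperfusion injury (IRI). The members were 43 genes named by symbol, out of 21367 genes in the deposited table, and each symbol matched 1 row. They comprised 15 genes of peroxisomal β-oxidation, 13 peroxins (*Pex* genes) and 15 other peroxisomal genes. Kidney mRNA was sequenced from 3 Ptpn6+/mev mice and 3 wild-type littermates, with 1 library per mouse. The Ptpn6+/mev genotype is heterozygous for viable motheaten (mev), a germline splice-site mutation of *Ptpn6*. This gene encodes the phosphatase SHP-1, and the labels call the genotype an SHP1 knockdown. All 6 mice were 7 weeks old and on a C57BL/6 background. In all of them the right kidney was removed, the left pedicle was clamped for 34 min and the left kidney was taken at 24 h, so both groups carry the injury and the uninjured state was not analysed here. The allele is present in every cell, and whole kidneys were measured.

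Peroxisomes are small organelles that shorten very-long-chain, branched-chain and dicarboxylic fatty acids, pass the products on to mitochondria, make ether lipids and break down hydrogen peroxide. Each round of peroxisomal β-oxidation runs through an acyl-CoA oxidase, a bifunctional enzyme and a thiolase, and the oxidase step releases hydrogen peroxide, which catalase removes. Peroxins build the organelle: they insert its membrane proteins, import its matrix enzymes and divide it. Peroxisomes are abundant in the proximal tubule of the kidney, and the nuclear receptor PPARα drives transcription of several β-oxidation enzymes and of *Pex11a*.

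Levels are given as FPKM, the authors' fragment number scaled to transcript length and library depth, and values of a group are listed in the order of replicates 1, 2 and 3. The log2 fold change (log2FC) is that of Ptpn6+/mev against wild-type mice as fitted by edgeR to the counts, with its standard error (SE), and p is adjusted over all genes tested. Library totals ranged from 10271590 to 12361745 estimated counts. *Ptpn6* itself stood at 11.8, 14.7 and 13.6 FPKM in the Ptpn6+/mev mice, against 17.5, 10.9 and 15.4 in the wild-type mice, with overlapping groups (log2FC -0.19, SE 0.17, adjusted p = 0.715). Wild-type replicate 2 stood apart from the other libraries: its 5 endothelial markers summed to an FPKM of 48.0, against 114 to 123 in the other 5 mice. It also had the highest FPKM of the 6 mice in 28 of the 42 members tested, against 17.3% of all genes tested. All 12 proximal tubule markers passed the count filter, as fits the labelled tissue. Their summed FPKM was 940 to 1130 in Ptpn6+/mev mice and 1157 to 1425 in wild-type mice, with no overlap. Of these 12 genes 10 had a lower fitted level in Ptpn6+/mev mice, 6 of them at an unadjusted p under 0.05 and none at an adjusted p under 0.05 by edgeR, and their median log2FC was -0.44. In whole kidney, fewer proximal tubule cells and less RNA per cell cannot be told apart. The part of this marker difference in the results below was not tested.

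Start regions are shown for 4 members on which the results turn: *Acaa1b* and *Ehhadh*, with the lowest fitted ratios among the enzymes, *Acaa1a*, the close paralog of *Acaa1b*, and *Pex11a*, with the lowest ratio among the peroxins. Each is the RefSeq window of 300 bases on GRCm38.p6, from 250 bases before to 50 bases after the annotated start, written 5′ to 3′ on the strand of the gene. Capitals mark AGGNCA, the hexamer of which nuclear receptor sites are built, on either strand.
*Acaa1b*, minus strand, chr9:119157044-119157343: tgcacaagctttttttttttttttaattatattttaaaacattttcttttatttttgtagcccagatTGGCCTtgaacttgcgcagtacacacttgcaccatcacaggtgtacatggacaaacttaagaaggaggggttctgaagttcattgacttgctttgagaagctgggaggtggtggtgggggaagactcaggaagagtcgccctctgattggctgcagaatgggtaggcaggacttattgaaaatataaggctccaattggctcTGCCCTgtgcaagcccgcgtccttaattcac
*Acaa1a*, plus strand, chr9:119341044-119341343: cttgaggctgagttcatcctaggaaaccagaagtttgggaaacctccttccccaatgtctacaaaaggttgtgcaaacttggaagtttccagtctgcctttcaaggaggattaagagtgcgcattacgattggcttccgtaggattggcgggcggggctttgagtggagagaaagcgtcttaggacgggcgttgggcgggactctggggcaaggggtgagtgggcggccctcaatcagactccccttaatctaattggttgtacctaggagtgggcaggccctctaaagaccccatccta
*Ehhadh*, minus strand, chr16:21787785-21788084: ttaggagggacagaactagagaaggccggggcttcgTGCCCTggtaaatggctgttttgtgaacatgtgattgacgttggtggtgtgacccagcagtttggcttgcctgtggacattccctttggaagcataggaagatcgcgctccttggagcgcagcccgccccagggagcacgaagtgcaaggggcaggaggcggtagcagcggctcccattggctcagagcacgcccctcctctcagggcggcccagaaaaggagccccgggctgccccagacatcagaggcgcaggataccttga
*Pex11a*, minus strand, chr7:79743082-79743381: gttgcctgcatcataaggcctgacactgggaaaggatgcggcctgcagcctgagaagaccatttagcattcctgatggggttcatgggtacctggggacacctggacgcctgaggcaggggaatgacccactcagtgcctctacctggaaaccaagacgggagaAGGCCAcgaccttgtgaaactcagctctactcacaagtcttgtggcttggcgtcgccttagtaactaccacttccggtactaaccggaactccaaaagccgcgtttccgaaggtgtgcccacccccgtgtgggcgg
Windows were found for 36 of the 43 members. The hexamer AGGNCA occurred in 22 of these 36, and in 56.8% of their 44 windows, against 57.2% of all 32851 windows of the same length. Among the β-oxidation genes it occurred in 7 of 12, and among the peroxins in 8 of 11. The direct repeat that PPARα binds, searched as 2 copies of AGGTCA with 1 base between them, was in none of the 44 windows and in 0.0396% of all windows. The looser repeat with AGGNCA in place of AGGTCA was also in none of them and in 0.381% of all. These letters are thus not in these windows on either strand, from which nothing follows about the receptor. The thiolase paralogs differed in their start regions: *Acaa1a* held 3 GC boxes (GGGCGG, either strand) and no hexamer, while *Acaa1b* held no GC box and 2 hexamers. GGGCGG was in 65.9% of the members' windows and 35.7% of all.

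The comparison of Ptpn6+/mev with wild-type mice asks whether mice with the mev allele express these genes differently in the injured kidney. Most members had lower fitted levels in Ptpn6+/mev mice. Of 43 members, 42 passed edgeR's filter on low counts, and 37 of these had a log2FC under 0, against 50.5% of the 13036 genes tested. β-Oxidation genes had a median log2FC of -0.59, with all 14 tested genes under 0. Peroxins had a median of -0.22, with 12 of 13 under 0, and the other peroxisomal genes a median of -0.35, with 11 of 15 under 0. Over all genes tested the median was -0.002. The difference between the classes was not tested.
No member passed an adjusted p under 0.05 in edgeR's quasi-likelihood test, in which 0.138% of all genes passed. At an unadjusted p under 0.05 there were 21 members, all lower in Ptpn6+/mev mice, against 6.71% of all genes that were lower at that p. These were 11 of 14 β-oxidation genes, 4 of 13 peroxins and 6 of 15 other members. DESeq2 called 7 members, all lower, against 1.92% of all genes that it called lower. They were *Acot8*, *Acox2*, *Cat*, *Ech1*, *Ephx2*, *Hacl1* and *Hsd17b4*. The exact test of edgeR called 8, all lower, against 1.78%, which were the same genes without *Ephx2* and with *Acaa1b* and *Ehhadh*. The quasi-likelihood test without a filter on low counts called 1 (*Acox2*), against 0.17%. No member was called with DESeq2 size factors or with at least 10 counts in every library (0.138% of all genes each), with upper quartile normalization (0.13%), or by limma on log2(FPKM + 1) (0.169%) and log2(FPKM + 0.1) (0.146%). With the replicate number as a block none was called either, against 0.00767% of all genes.
In 19 of the 42 members every Ptpn6+/mev mouse had a lower FPKM than every wild-type mouse, against 6.38% of all genes. No member was higher in every Ptpn6+/mev mouse, against 14% of all genes. The 19 were 10 β-oxidation genes, 4 peroxins and 5 others. With counts scaled by library size and edgeR's TMM factors (CPM), 24 members were lower in every Ptpn6+/mev mouse, against 9.8% of all genes.

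**Figure D1:**
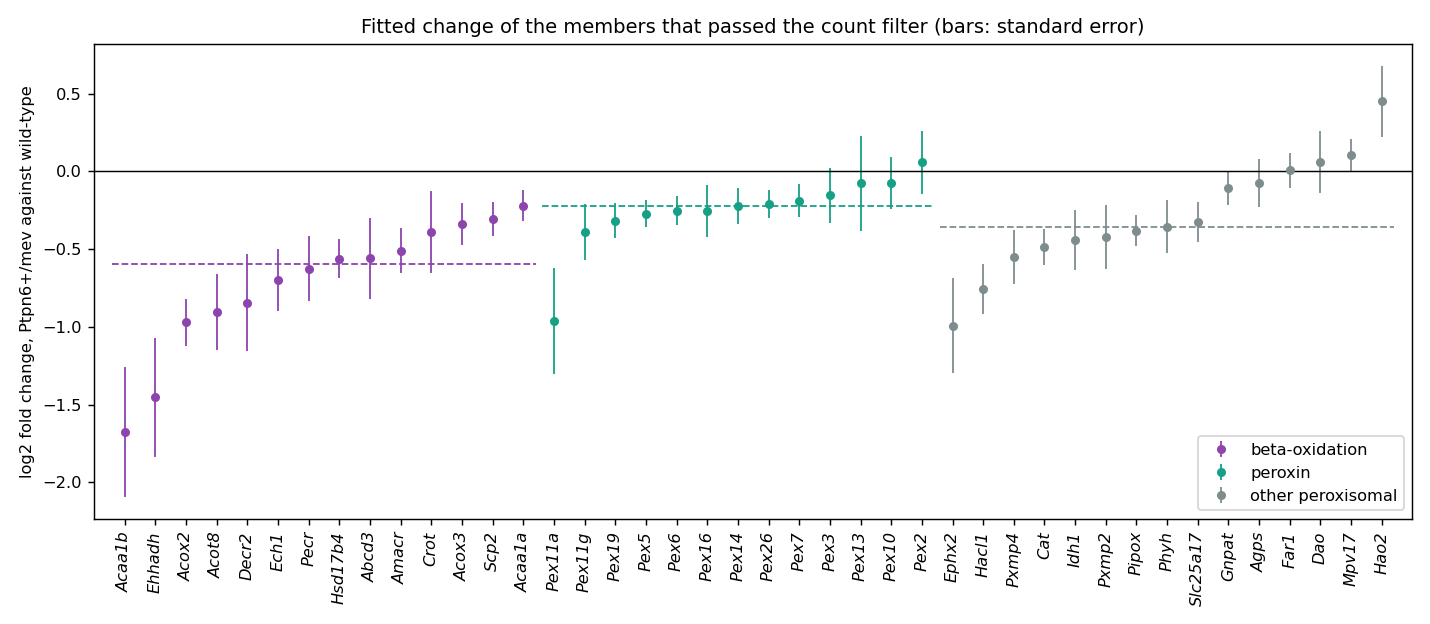
Fitted log2 fold change of Ptpn6+/mev against wild-type mice (vertical axis) for the 42 members that passed the count filter, ordered within each class. Points are edgeR estimates, bars their standard errors, dashed lines the class medians of -0.59, -0.22 and -0.35, and the solid line no change; *Acaa1b* and *Ehhadh* lie lowest.

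The 2 lowest ratios among the core enzymes were those of the PPARα-responsive pair *Acaa1b* and *Ehhadh*. *Acaa1b* encodes a 3-ketoacyl-CoA thiolase, the enzyme of the last step, and lies at chr9:119148023-119157093 (GRCm38, minus strand). It reached 117, 98.0 and 122 FPKM in the Ptpn6+/mev mice, against 356, 516 and 139 in the wild-type mice. The groups did not overlap, but wild-type replicate 3 lay close to the Ptpn6+/mev mice, and the wild-type mice varied among themselves far more than the Ptpn6+/mev mice. The means were 112 ± 12.8 (SD, n = 3) and 337 ± 189 (SD, n = 3), with a log2FC of -1.67 (SE 0.42, adjusted p = 0.164).
*Acaa1a*, the paralog with the same reaction, lies at chr9:119339676-119350299 (plus strand), a span that holds the RefSeq start shown above. Its FPKM was 61.5, 63.9 and 61.9 in Ptpn6+/mev mice and 68.5, 69.1 and 68.7 in wild-type mice. These values were also apart but differed little, with a log2FC of -0.22 (SE 0.10, adjusted p = 0.421). The reference transcripts of the pair were 96.6% identical over 1428 aligned bases. The longest identical run was 327 bases, and 13.3% of the stretches of 150 bases in *Acaa1b* occurred unchanged in *Acaa1a*. Both genes had fractional counts. With the shared sequence the division of reads between them may be uncertain, which was not tested.
*Ehhadh* encodes the bifunctional enzyme of straight-chain and dicarboxylic acids and lies at chr16:21761287-21787807 (minus strand). Its FPKM was 96.6, 68.1 and 82.5 in Ptpn6+/mev mice and 175, 343 and 116 in wild-type mice. Wild-type replicate 2 was highest and replicate 3 closest to the Ptpn6+/mev range, as for *Acaa1b*, and the groups were apart. The log2FC was -1.45 (SE 0.38, adjusted p = 0.177), and -0.86 without wild-type replicate 2.
*Hsd17b4*, the bifunctional enzyme that serves branched and very-long chains, had an FPKM of 121, 111 and 116 in Ptpn6+/mev mice and 160, 184 and 143 in wild-type mice. All Ptpn6+/mev mice lay below all wild-type mice. This gave a log2FC of -0.56 (SE 0.13, adjusted p = 0.125).
*Acox2*, the oxidase of branched-chain acids and bile acid intermediates, had the lowest adjusted p of all members. It lies at chr14:8225511-8259353 (minus strand). Its FPKM was 9.83, 11 and 8.24 in Ptpn6+/mev mice and 17.4, 22.0 and 17.3 in wild-type mice, so that the highest Ptpn6+/mev value was well under the lowest wild-type value. The means were 9.69 ± 1.39 (SD, n = 3) and 18.9 ± 2.65 (SD, n = 3). edgeR fitted a log2FC of -0.97 (SE 0.15, adjusted p = 0.0685). Over the 15 alternatives it lay between -1.08 and -0.85, with an adjusted p of 1.72e-05 to 0.369 and 5 calls.
*Acox3*, the other branched-chain oxidase, gave different answers in its counts and its FPKM. Its FPKM was 28.2, 28.9 and 28.4 in Ptpn6+/mev mice and 26.5, 32.9 and 26.2 in wild-type mice, with overlapping groups. The fit to counts gave a log2FC of -0.34 (SE 0.13, adjusted p = 0.353), while limma on log2(FPKM + 1) gave 0.0057. Its counts per FPKM, which depend on the length that was assigned to the transcript, differed by 0.70 (log2) between libraries.
*Scp2*, whose product holds a thiolase for branched chains and a lipid carrier, had an FPKM of 200.5, 187 and 212 in Ptpn6+/mev mice and 258, 232 and 215 in wild-type mice. The groups were apart by a narrow margin. The fit gave a log2FC of -0.31 (SE 0.11, adjusted p = 0.314).

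**Figure D2:**
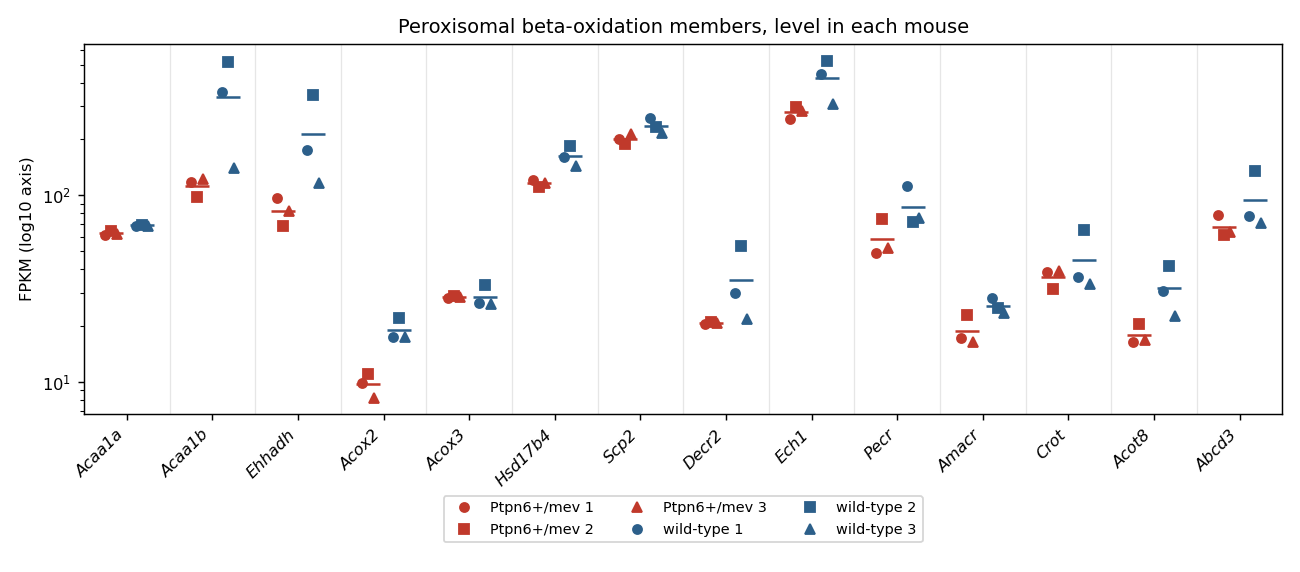
FPKM on a log10 axis (vertical) of the 14 β-oxidation members that passed the count filter, in each of the 6 mice; red symbols are Ptpn6+/mev mice, blue symbols wild-type mice, symbol shapes the replicate numbers and horizontal lines the group means. For *Acaa1b* and *Ehhadh* the wild-type values spread widely, with replicate 2 at the top and replicate 3 near the Ptpn6+/mev values, while for *Acox2* all 3 wild-type mice lie well above.

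The auxiliary enzymes, which prepare substrates or release products, had a median log2FC of -0.66 over 6 genes. *Ech1*, a dienoyl-CoA isomerase for unsaturated chains that is also found in mitochondria, was the most abundant member by mean FPKM. Its FPKM was 256, 295 and 281 in Ptpn6+/mev mice and 446, 524 and 309 in wild-type mice. The groups were apart, and wild-type replicate 3 again lay nearest to the Ptpn6+/mev mice. The log2FC was -0.70 (SE 0.20, adjusted p = 0.207).
*Acot8*, a thioesterase that frees shortened acyl chains, had an FPKM of 16.4, 20.4 and 16.7 in Ptpn6+/mev mice and 30.6, 41.9 and 22.6 in wild-type mice. Its groups were apart as well, with a log2FC of -0.91 (SE 0.24, adjusted p = 0.188), and it had fractional counts. *Decr2*, the dienoyl-CoA reductase of unsaturated chains, had an FPKM of 20.5, 21.03 and 20.7 in Ptpn6+/mev mice and 30.1, 53.3 and 21.7 in wild-type mice. Only wild-type replicates 1 and 2 lay clearly above the Ptpn6+/mev mice, and the log2FC was -0.84 (SE 0.31, adjusted p = 0.325), or -0.36 without wild-type replicate 2.
*Amacr*, the racemase that makes branched chains fit for oxidation, had an FPKM of 17.1, 22.7 and 16.3 in Ptpn6+/mev mice and 28.0, 24.8 and 23.3 in wild-type mice. It was 1 of 3 among the 14 tested β-oxidation members in which wild-type replicate 2 was not the highest mouse, the others being *Scp2* and *Pecr*. This gave a log2FC of -0.51 (SE 0.15, adjusted p = 0.213).
*Pecr*, a trans-2-enoyl-CoA reductase, had an FPKM of 49.1, 74.2 and 52.1 in Ptpn6+/mev mice and 112, 71.7 and 75.2 in wild-type mice. Ptpn6+/mev replicate 2 lay within the wild-type range. edgeR fitted a log2FC of -0.62 (SE 0.21, adjusted p = 0.278). *Crot*, the carnitine octanoyltransferase that exports medium chains, had an FPKM of 31.6 to 39.1 in Ptpn6+/mev mice and 33.5 to 64.8 in wild-type mice, with overlap, and its log2FC was -0.39 (SE 0.26, adjusted p = 0.63).
The transporters bring fatty acyl-CoA into the organelle. *Abcd3* had an FPKM of 61.5 to 78.1 in Ptpn6+/mev mice and 70.8 to 134 in wild-type mice, which overlapped, and a log2FC of -0.56 (SE 0.26, adjusted p = 0.437), or -0.17 without wild-type replicate 2. *Abcd2* was the member below the count filter, with 3, 7 and 6 counts in Ptpn6+/mev mice and 13, 0 and 14 in wild-type mice, too few to show a difference at this depth.

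The fitted values of the 13 peroxins lay between -0.96 and 0.06, and *Pex11a* was the lowest of them. *Pex11a* encodes the inducible factor of peroxisome division and lies at chr7:79735957-79743131 (minus strand). Its FPKM was 36.8, 26.5 and 32.4 in Ptpn6+/mev mice and 42.6, 92.4 and 39.9 in wild-type mice. The groups were apart, but wild-type replicate 2 alone stood far above the rest. The fit gave a log2FC of -0.96 (SE 0.34, adjusted p = 0.306), and -0.41 without that mouse. Its paralog *Pex11g* had an FPKM of 4.06 to 6.55 in Ptpn6+/mev mice and 4.35 to 7.51 in wild-type mice, with overlap, and its counts per FPKM differed by 0.56 (log2) between libraries. The fitted log2FC of *Pex11g* was -0.39 (SE 0.18, adjusted p = 0.443).
The receptors of matrix import recognise targeting signals on newly made enzymes. *Pex5*, the receptor of the C-terminal signal, had an FPKM of 24.3, 26.3 and 26.5 in Ptpn6+/mev mice and 28.5, 29.5 and 30.5 in wild-type mice. These narrow groups were apart, with a log2FC of -0.27 (SE 0.09, adjusted p = 0.258). *Pex7*, the receptor of the N-terminal signal that the thiolases and *Phyh* carry, ranged from 36.6 to 40.3 in Ptpn6+/mev mice and from 36.7 to 46.1 in wild-type mice. Its groups overlapped, and its log2FC was -0.19 (SE 0.11, adjusted p = 0.559).
Docking and ubiquitination of the receptors involve *Pex13* and *Pex14* at the membrane pore and the ring-finger ligases *Pex2* and *Pex10*. All 4 overlapped between the groups, with log2FC values of -0.08 for *Pex13*, -0.22 for *Pex14*, 0.06 for *Pex2* and -0.07 for *Pex10*. *Pex2* was the single peroxin with a fitted value above 0. *Pex13* ranged from 3.68 to 8.41 FPKM among the wild-type mice alone, and its log2FC took both signs, from -0.33 to 0.34, as single mice were left out.
Receptor recycling needs the ATPase *Pex6* and its membrane anchor *Pex26*. *Pex6* had an FPKM of 19.5, 22.6 and 20.1 in Ptpn6+/mev mice and 23.8, 21.5 and 25.3 in wild-type mice. Ptpn6+/mev replicate 2 exceeded wild-type replicate 2, and the log2FC was -0.25 (SE 0.09, adjusted p = 0.327). *Pex26* had an FPKM of 8.16, 8.56 and 8.54 in Ptpn6+/mev mice and 9.34, 8.68 and 9.77 in wild-type mice, which were apart by a small margin, and a log2FC of -0.21 (SE 0.09, adjusted p = 0.412).
Membrane protein insertion depends on *Pex3*, *Pex16* and *Pex19*. *Pex19*, the chaperone that carries membrane proteins and the most abundant peroxin by mean FPKM, had 51.3, 55.8 and 53.0 in Ptpn6+/mev mice and 65.3, 66.3 and 56.8 in wild-type mice. All Ptpn6+/mev mice were below all wild-type mice, with a log2FC of -0.32 (SE 0.11, adjusted p = 0.306). Its membrane receptor *Pex3* (log2FC -0.15, fractional counts) and *Pex16* (-0.25) overlapped between the groups.

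**Figure D3:**
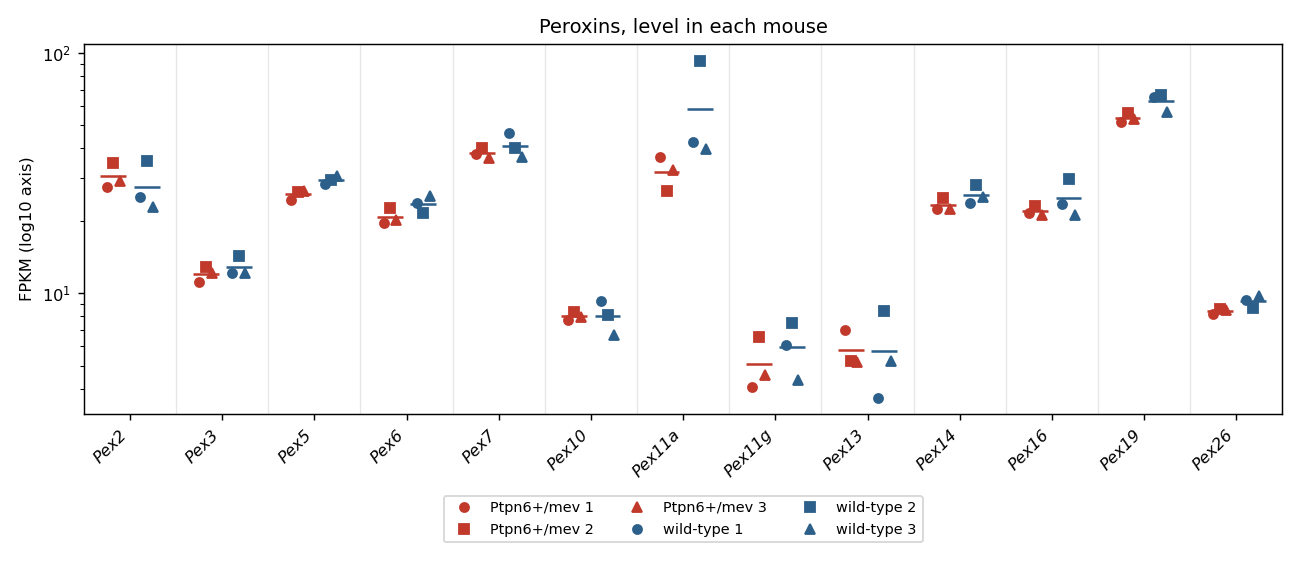
FPKM on a log10 axis (vertical) of the 13 peroxins in each of the 6 mice; red symbols are Ptpn6+/mev mice, blue symbols wild-type mice, symbol shapes the replicate numbers and horizontal lines the group means. Most groups overlap or nearly touch, and the value of 92.4 for *Pex11a* in wild-type replicate 2 stands far from the others.

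Among the 15 other members, α-oxidation removes 1 carbon from branched acids such as phytanic acid. Its lyase *Hacl1* had an FPKM of 13.1, 13.4 and 12.6 in Ptpn6+/mev mice and 18.7, 25.5 and 17.7 in wild-type mice. The Ptpn6+/mev values were tightly grouped and lay below all wild-type values. The log2FC was -0.76 (SE 0.16, adjusted p = 0.115). The hydroxylase of the same pathway, *Phyh*, had 198, 179 and 162 in Ptpn6+/mev mice and 201, 267 and 183 in wild-type mice, which overlapped, and a log2FC of -0.35 (SE 0.17, adjusted p = 0.462).
Catalase, which splits hydrogen peroxide, is encoded by *Cat* at chr2:103453849-103485160 (minus strand). Its FPKM was 241, 190.0 and 193 in Ptpn6+/mev mice and 263, 284 and 283 in wild-type mice. The groups were apart and wild-type mice agreed closely, at 277 ± 11.9 (SD, n = 3) against 208 ± 28.7 (SD, n = 3). This gave a log2FC of -0.48 (SE 0.12, adjusted p = 0.145).
The oxidases that make hydrogen peroxide from amino and hydroxy acids did not share 1 direction in their fitted values. *Pipox*, the sarcosine and pipecolate oxidase, had an FPKM of 46.6, 52.3 and 50.4 in Ptpn6+/mev mice and 68.8, 58.6 and 58.1 in wild-type mice. These groups were apart, with a log2FC of -0.38 (SE 0.10, adjusted p = 0.177). *Hao2*, the oxidase of long-chain hydroxy acids, had 15.4 to 24.9 in Ptpn6+/mev mice and 11.6 to 19.8 in wild-type mice. It overlapped, and its log2FC of 0.45 (SE 0.23, adjusted p = 0.482) was the highest of all members. *Dao*, the D-amino acid oxidase, overlapped as well, with a log2FC of 0.06 (SE 0.20, adjusted p = 0.939), and it took the other sign without wild-type replicate 2, at -0.15.
Ether lipid synthesis starts with *Gnpat*, *Agps* and *Far1*. All 3 overlapped between the groups. The fitted log2FC values were -0.11 for *Gnpat*, -0.07 for *Agps* and 0.01 for *Far1*, with adjusted p values of 0.757 to 0.99.
Carriers and channels of the membrane were mixed. *Slc25a17*, the carrier of coenzyme A and related cofactors, had an FPKM of 79.4, 68.3 and 72.0 in Ptpn6+/mev mice and 80.9, 98.9 and 81.4 in wild-type mice. The groups barely separated, with a log2FC of -0.32 (SE 0.13, adjusted p = 0.353). *Pxmp4* had 86.6, 74.8 and 73.1 in Ptpn6+/mev mice and 94.6, 111 and 85.7 in wild-type mice, and Ptpn6+/mev replicate 1 lay within the wild-type range. Its log2FC was -0.55 from the counts (SE 0.17, adjusted p = 0.249) but -0.30 by limma on log2(FPKM + 1), and its counts per FPKM differed by 0.32 (log2) between libraries. *Pxmp2*, a channel for small metabolites, had -0.42 (SE 0.20, adjusted p = 0.46), and *Mpv17*, whose product is also placed in mitochondria, had 0.11 (SE 0.10, adjusted p = 0.74), both with overlap.
*Ephx2*, the soluble epoxide hydrolase, had an FPKM of 77.0, 80.3 and 61.8 in Ptpn6+/mev mice and 103, 208 and 99.0 in wild-type mice. All Ptpn6+/mev mice were below all wild-type mice, and wild-type replicate 2 was well above the other wild-type mice. edgeR fitted a log2FC of -0.99 (SE 0.31, adjusted p = 0.239), and -0.51 without that mouse. *Idh1*, the NADP-dependent isocitrate dehydrogenase of cytosol and peroxisome, had 296, 265 and 250.02 in Ptpn6+/mev mice and 289, 447 and 297 in wild-type mice. It overlapped, and its log2FC was -0.44 (SE 0.19, adjusted p = 0.416), or -0.17 without wild-type replicate 2.

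**Figure D4:**
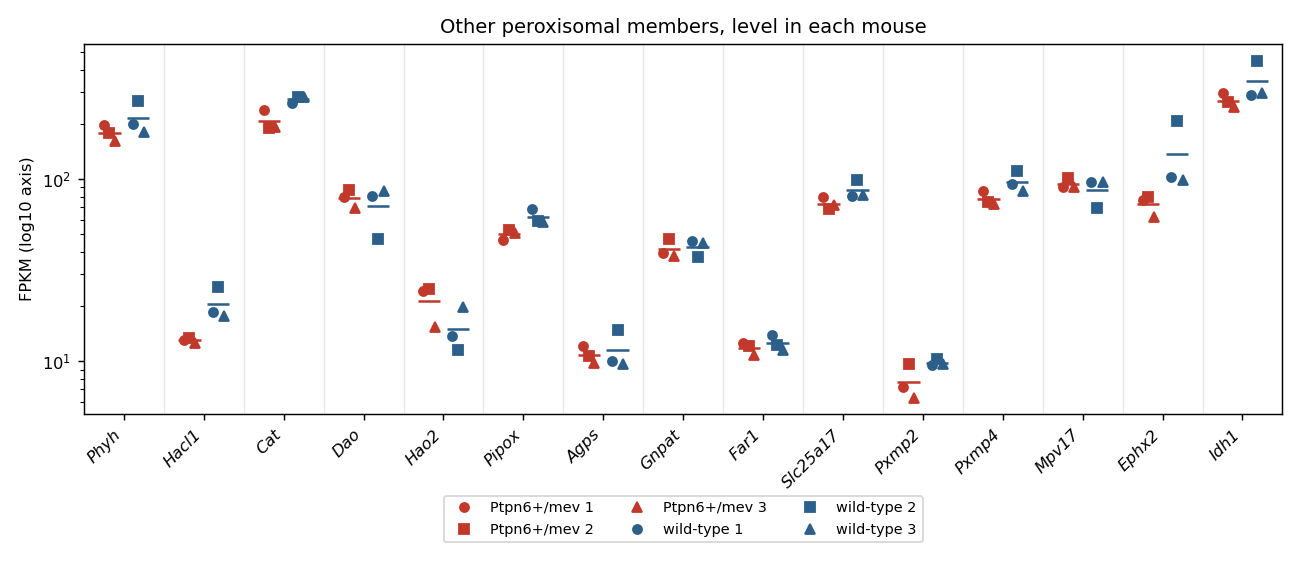
FPKM on a log10 axis (vertical) of the 15 other peroxisomal members in each of the 6 mice; red symbols are Ptpn6+/mev mice, blue symbols wild-type mice, symbol shapes the replicate numbers and horizontal lines the group means. *Hacl1*, *Cat*, *Pipox*, *Slc25a17* and *Ephx2* show no overlap between the groups, and *Dao*, *Hao2* and *Mpv17* have the higher mean in Ptpn6+/mev mice.

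Added up by mouse, the β-oxidation members came to 1110.4, 1094 and 1121 FPKM in the Ptpn6+/mev group. The wild-type group had sums of 1821, 2314 and 1281. The Ptpn6+/mev mice were thus nearly alike and below each wild-type mouse, while the wild-type mice spread widely. The summed FPKM of the peroxins was 279.5, 296 and 279.7 in Ptpn6+/mev mice and 319, 390.3 and 296 in wild-type mice, the nearest mice of the groups being almost equal. The median log2 CPM of the β-oxidation members, each set against its wild-type mean, was -0.69, -0.58 and -0.68 in Ptpn6+/mev mice and -0.03, 0.33 and -0.31 in wild-type mice. For the peroxins it was -0.26, -0.12 and -0.24 against -0.08, 0.21 and -0.19, so that Ptpn6+/mev replicate 2 lay above wild-type replicate 3. For the other members it was -0.20, -0.30 and -0.36 against -0.10, 0.16 and -0.14, with no overlap. Their summed FPKM was 1303, 1216 and 1115 in Ptpn6+/mev mice and 1390, 1702 and 1383 in wild-type mice, also without overlap. Wild-type replicate 3 was the lowest wild-type mouse in 12 of 14 β-oxidation members and wild-type replicate 2 the highest in 11 of 14.

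**Figure D5:**
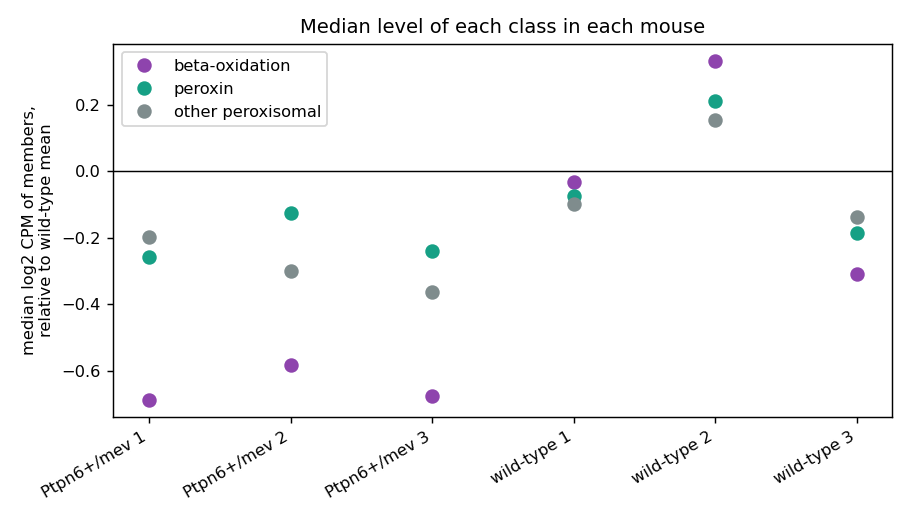
Median over the members of each class of log2 CPM relative to the wild-type mean of each gene (vertical axis), for each of the 6 mice (horizontal axis); purple points are β-oxidation, green points peroxins and grey points other members. The β-oxidation medians of the Ptpn6+/mev mice lie at -0.69 to -0.58, below those of all wild-type mice. The medians of the other members are also apart, and wild-type replicate 2 is the highest mouse in all classes.

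The calls differed with each of these mice left out. Without wild-type replicate 2, edgeR's quasi-likelihood test called *Acox2*, *Ehhadh*, *Hacl1* and *Hsd17b4*, against 1.09% of all genes that were called lower, and the median log2FC was -0.48 for β-oxidation members and -0.14 for peroxins. Besides the members for which this is given above, the fitted value moved by over 1.5 times without wild-type replicate 2 in, among others, *Acaa1a* (to -0.14), *Phyh* (to -0.14), *Pex14* (to -0.11), *Pex16* (to -0.06), *Slc25a17* (to -0.19) and *Pxmp4* (to -0.34), and in *Crot* it turned to 0.017. Without wild-type replicate 3 the test called *Acaa1b*, *Acox2* and *Ech1*, against 0.387%, and the medians were -0.74 and -0.26. Leaving out any of the other 4 mice gave no call among the members, where 0.0303%, 0.0834% and 0.0076% of all genes passed without Ptpn6+/mev replicates 1, 2 and 3 and 0.0758% without wild-type replicate 1. In FPKM, 11, 11 and 10 of the 14 β-oxidation members were lower in every Ptpn6+/mev mouse when Ptpn6+/mev replicate 1, 2 or 3 was left out, against 9.12%, 10.1% and 8.99% of all genes. Without wild-type replicate 1, 2 or 3 there were 10, 11 and 10, against 8.29%, 14.3% and 10.7%.
Since the proximal tubule markers also summed to less in the Ptpn6+/mev mice, the sums were read against them. Per unit of their summed FPKM, the β-oxidation members came to 1.15, 0.968 and 1.19 in Ptpn6+/mev mice and 1.28, 2.00 and 0.958 in wild-type mice. The groups thus overlapped on this scale, which was chosen after the data were seen. Peroxins came to 0.289, 0.262 and 0.298 against 0.224, 0.337 and 0.222, and the other members to 1.35, 1.08 and 1.19 against 0.976, 1.47 and 1.03. In both these classes every Ptpn6+/mev mouse lay above wild-type replicates 1 and 3 and below replicate 2. Wild-type replicates 1 and 3 had the highest marker sums, 1425 and 1338, whereas replicate 2, with the highest β-oxidation sum, had 1157. Markers of macrophages summed to an FPKM of 164 to 270 in Ptpn6+/mev mice and 107 to 235 in wild-type mice, and those of neutrophils to 19.9 to 52.6 and 23.9 to 39.4, with overlap in both. All 7 macrophage markers tested had a log2FC above 0 (median 0.23), as had all 5 endothelial markers (median 0.21), with 0 at an unadjusted p under 0.05. These medians were -0.01 and -0.16 without wild-type replicate 2, and 0.31 and 0.41 without wild-type replicate 3. Of 9 tubular injury markers 4 were higher and 1 lower at an unadjusted p under 0.05, against 5.53% and 6.71% of all genes, and none passed an adjusted p under 0.05 by edgeR. In FPKM, 4 of the 9 were higher and 0 lower in every Ptpn6+/mev mouse, against 14% and 6.38% of all genes. The median log2FC of the 9 was 0.16, or 0.34 without wild-type replicate 2 and 0.24 without wild-type replicate 3. Their summed FPKM, which follows the most abundant of them, was 26938 to 32959 in Ptpn6+/mev mice and 30193 to 39005 in wild-type mice, with overlap. Distal nephron markers had a median log2FC of -0.13 over 7 genes, which became 0.21 without wild-type replicate 2 and -0.40 without wild-type replicate 3. Liver also makes these enzymes: the 4 hepatocyte markers summed to 33.5 to 44.4 FPKM in Ptpn6+/mev and 34.8 to 49.8 in wild-type mice, with overlap. Most of this was *Ttr*, at 25.5 to 38.1 against 19.2 to 30.6 FPKM (log2FC 0.31, SE 0.22, adjusted p = 0.64). *Serpina1a* was at 3.98 to 9.44 against 10.1 to 17.5 FPKM (log2FC -1.09, SE 0.33, adjusted p = 0.231). *Alb* was at 1.70 to 2.23 against 3.68 to 6.29 FPKM (log2FC -1.49, SE 0.27, adjusted p = 0.0852), and *Apoa1* was listed at 0 in Ptpn6+/mev mice and at 0.09 to 0.26 in wild-type mice. The part of these markers in the results was not tested.

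A further 35 genes outside the members, from a list of genes linked to peroxisomes, were read for comparison, of which 32 passed the count filter. Where in the cell the products of these genes lie was not tested. Of these, 27 had a fitted log2FC under 0, with a median of -0.21, which was -0.15 without wild-type replicate 2 and -0.34 without wild-type replicate 3. At an unadjusted p under 0.05 there were 12 lower and 2 higher genes, against 6.71% and 5.53% of all genes tested, so that the share of higher genes was near that of all genes. The 2 higher ones, named here after their values were seen, were *Uox* and *Pmvk*. *Uox*, the urate oxidase, had low levels, at 1.69, 1.89 and 2.89 FPKM in Ptpn6+/mev mice and 0.54, 1.23 and 0.77 in wild-type mice. Its log2FC was 1.05 (SE 0.35, adjusted p = 0.274). *Pmvk*, a kinase of the mevalonate pathway, had a log2FC of 0.48 (SE 0.16, adjusted p = 0.283). Of the 32 genes 1 passed an adjusted p under 0.05 in edgeR's quasi-likelihood test, against 0.138% of all genes. It was *Xdh*, xanthine dehydrogenase (adjusted p = 0.0366), with an FPKM of 21.7, 25.4 and 25.2 in Ptpn6+/mev mice and 40.7, 36.7 and 39.5 in wild-type mice and a log2FC of -0.76 (SE 0.09). Its groups were well apart, and in wild-type replicate 2 it was the lowest of the wild-type values, unlike most β-oxidation members.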

How the data were processed

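Kidney mRNA of 3 Ptpn6+/mev and 3 wild-type mice was sequenced. The authors aligned reads to GRCm38.p5 (Ensembl release 90) with TopHat, and Cufflinks gave the expression values. The submitters' processing notes also name Bowtie2, TopHat2 and RSEM. The authors deposited estimated counts and FPKM for each library; counts were fractional in 1744 genes and were rounded here. The KEGG and GO annotation columns were not used. Group and replicate came from the sample labels.

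Counts were tested over the whole table with edgeR 4.0.16 (R 4.3.3): TMM, filterByExpr, quasi-likelihood F-test, Benjamini-Hochberg adjustment over 13036 genes. Standard errors were derived from the F statistic. DESeq2 1.42.0, limma 3.58.1 and biopython 1.88 were also used, and the fits were tested on simulated data. On these, DESeq2 and the exact test made false calls well above the nominal share and the quasi-likelihood test near it. Limma was also near it, but on simulated counts scaled to library size, so its use on FPKM was not tested. Libraries of 1 group differed by more than counting noise (chi-square per degree of freedom 6.49 to 45.4). The p-values set the difference between the groups against the spread between the 3 mice of a group, moderated across genes. Precision at low counts is limited by depth.

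Members and lists were chosen with earlier results of these data known. Members with an unadjusted p under 0.05, with groups apart in FPKM, or among the 6 with the highest mean FPKM are given mouse by mouse; others by range or by fitted change. Gene positions are from GENCODE M21 (GRCm38), start regions from RefSeq (GRCm38.p6). Alternatives were DESeq2 size factors, upper quartile normalization, DESeq2, the exact test, limma on log2(FPKM + 1) and log2(FPKM + 0.1), no filter, a minimum of 10 counts in each library, a block for the replicate number, and each library left out in turn.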

Additional observations from a re-analysis of the deposited data

How the results depend on the processing

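The number of members called at an adjusted p under 0.05 was 0 in edgeR's quasi-likelihood test and depended on the test and on 2 mice. DESeq2 called 7, of which 4 were β-oxidation members, and the exact test called 8, of which 6 were. Without a filter on low counts 1 was called, *Acox2*. Leaving out each mouse in turn gave 0 to 4 members and 0 to 3 β-oxidation members. No setting called a peroxin. The medians of the β-oxidation members and of the peroxins kept their sign in all 15 alternatives. With limma on log2(FPKM + 1) and log2(FPKM + 0.1) the peroxin median was nearer 0, at -0.140 and -0.145, with 10 of 13 peroxins under 0, and that of the β-oxidation members was -0.51 and -0.52, with 13 of 14 under 0. On these scales the median of all genes was 0.06 and 0.08. Of the members, 19 to 24 were lower in every Ptpn6+/mev mouse when this was recounted in CPM and without each mouse, a choice made after the data were seen. Over the same settings the share of all genes was 8.29% to 14.3%.
The replicate numbers did not pair the mice. For this, each mouse's deviations from its group mean in log2 CPM were correlated between the groups over 13036 genes. Deviations of same-numbered mice correlated at -0.14, -0.18 and -0.13, and none correlated best with its own number. With the replicate block 0 members were called, and the medians were -0.59 for β-oxidation members and -0.22 for peroxins.
Of the 42 members, 33 kept their sign in all of the alternatives run. Limma on FPKM with a pseudocount of 1 or 0.1 turned *Acox3* (0.0057 and 0.0062), *Pex10* (0.0049 and 0.0067), *Pex13* (0.056 and 0.074) and *Far1* (-0.080 and -0.086). The cause was not tested. Leaving out single mice turned *Crot* (-0.58 to 0.017), *Pex2* (-0.10 to 0.32), *Pex3* (-0.26 to 0.047), *Pex10* (-0.21 to 0.022), *Pex13* (-0.33 to 0.34), *Dao* (-0.15 to 0.21), *Agps* (-0.17 to 0.11) and *Far1* (-0.074 to 0.082). Counts per FPKM differed by over 0.1 (log2) between libraries in 10 members and in 32.8% of genes with at least 50 counts, so FPKM and counts can differ for these.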
